A study of Homo sapiens with 12 samples.

Results

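The genes described here are 34 components of the NF-κB pathway, chosen by symbol: the DNA-binding subunits, the IκB proteins that hold them back, the IκB kinases, the adaptors and ubiquitin ligases that lead to those kinases, the feedback inhibitors, and 3 genes known as effector targets. All 34 were found among the 28395 gene identifiers of the count table, and 33 had enough reads to be tested. RNA was sequenced from BEAS-2B, an immortalised human bronchial epithelial line, so every library comes from 1 line (the growth protocol in the labels names A549, a lung carcinoma line, while the source, cell type and treatment protocol name BEAS-2B). Cells of every group were first kept for 24 h in medium free of serum and steroids. The control group had no further treatment, the TGF-β1 group had transforming growth factor β1 at 40 pM for 24 h, the dexamethasone group had this synthetic glucocorticoid at 30 nM for 4 h, and the combined group had TGF-β1 for 24 h and then dexamethasone for a further 4 h. Each group had 3 libraries, described by the submitters as biological triplicates, and no vehicle for the controls is given in the sources used here.

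NF-κB subunits act as dimers that are kept in the cytoplasm by IκB proteins. In the canonical route, adaptor complexes bring ubiquitin ligases to the kinase complex of IKBKB, CHUK and IKBKG, which marks IκB for destruction and frees dimers such as NFKB1 with RELA. In the non-canonical route, the kinase MAP3K14 (NIK) acts through CHUK to process the NFKB2 precursor, which pairs with RELB, and TRAF3 with the ligases BIRC2 and BIRC3 keeps MAP3K14 low. NF-κB switches on genes for its own inhibitors, among them NFKBIA and TNFAIP3, and glucocorticoids are known to oppose its induction of inflammatory genes in airway epithelium. Transcript levels say nothing on protein amount, phosphorylation or nuclear entry.

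The promoters of 5 members are shown because these genes changed with dexamethasone, 3 of them upwards and 2 downwards, and all 5 carry a letter match to a κB motif, the sequence that NF-κB dimers bind. Each line gives the 250 bases before a transcript start from RefSeq (GRCh38.p14), 5′ to 3′ on the gene's own strand. For TNFAIP3, TNFAIP2 and BCL3 that start lies inside the gene, downstream of the gene's first base (chr6:137866349, chr14:103121469 and chr19:44747705). Capitals mark matches, on either strand, to the κB consensus or to its short form GGGNNTTCC, and the 2 forms can overlap. The stretches are chr14:35404750-35404999 (minus strand) for NFKBIA, chr11:102317234-102317483 (plus) for BIRC3, chr6:137867009-137867258 (plus) for TNFAIP3, chr14:103123211-103123460 (plus) for TNFAIP2 and chr19:44748458-44748707 (plus) for BCL3.
NFKBIA: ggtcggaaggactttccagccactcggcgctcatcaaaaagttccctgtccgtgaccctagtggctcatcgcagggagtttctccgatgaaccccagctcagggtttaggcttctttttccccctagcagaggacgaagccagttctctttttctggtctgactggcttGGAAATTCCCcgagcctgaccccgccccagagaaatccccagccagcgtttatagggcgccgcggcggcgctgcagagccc
BIRC3: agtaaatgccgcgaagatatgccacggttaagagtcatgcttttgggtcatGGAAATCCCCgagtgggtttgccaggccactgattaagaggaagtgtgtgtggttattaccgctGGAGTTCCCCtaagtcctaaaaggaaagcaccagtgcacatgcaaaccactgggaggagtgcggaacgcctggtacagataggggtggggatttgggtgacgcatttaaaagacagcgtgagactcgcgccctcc
TNFAIP3: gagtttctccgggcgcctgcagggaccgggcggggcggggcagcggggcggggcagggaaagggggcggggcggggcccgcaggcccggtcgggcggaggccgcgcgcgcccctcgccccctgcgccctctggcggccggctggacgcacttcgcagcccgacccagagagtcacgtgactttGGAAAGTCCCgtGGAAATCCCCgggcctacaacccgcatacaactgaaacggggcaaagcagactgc
TNFAIP2: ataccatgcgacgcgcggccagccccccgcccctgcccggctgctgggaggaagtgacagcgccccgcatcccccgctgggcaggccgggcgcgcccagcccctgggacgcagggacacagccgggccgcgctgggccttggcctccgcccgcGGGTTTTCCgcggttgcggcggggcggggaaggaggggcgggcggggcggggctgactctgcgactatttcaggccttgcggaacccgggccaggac
BCL3: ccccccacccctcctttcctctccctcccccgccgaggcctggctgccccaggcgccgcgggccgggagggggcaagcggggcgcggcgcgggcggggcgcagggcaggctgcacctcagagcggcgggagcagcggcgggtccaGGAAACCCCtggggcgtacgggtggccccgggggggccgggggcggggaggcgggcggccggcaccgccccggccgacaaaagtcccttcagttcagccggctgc

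Promoter windows from 250 bases before to 50 after the start were at hand for 29 members, as 49 windows, and not for CARD14, IKBKB, NFKBIE, RELB and RIPK2. The κB consensus was found in 17 of the 49 windows (34.7%, in 13 genes), and in 5.91% of the 35116 windows in the whole RefSeq table. The short form was found in 13 of the 49 windows (26.5%) and in 6.58% of all windows. The full glucocorticoid response element was in 0 of the 49 member windows and in 0.18% of all windows, and the shorter element AGAACA, one arm of it, was in 5 member windows (10.2%) and in 14.79% of all. The SMAD element GTCTAGAC, named for the proteins that carry the TGF-β signal, was in 0 of the 49 windows and in 0.2% of all, and the AP-1 element TGANTCA was in 4 member windows (8.2%) and in 7.71% of all. These are letter matches in short windows, with no binding measured. The 5 promoters shown were picked for a change with dexamethasone and a κB match, so they cannot relate matches to either direction. TNFAIP2 had only the short form, and the consensus match of BCL3 lies after the start, outside the bases shown. Among the other members called with dexamethasone alone that had a window, NFKB2 and TRAF3 held a match of either form. BIRC2, ZC3H12A, OTUD7B, IKBKE and CARD10 held none.

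Library totals were 5861591 to 7008203 counted reads in replicates 1 and 2 and 17968961 to 19727235 in replicate 3, so values of low genes carry less counting error in replicate 3. Levels below are CPM, read counts divided by a library size scaled by the trimmed mean of M values (TMM) and put on a common total. CPM is not comparable between genes of different length. A gene is said to have risen or fallen where edgeR's quasi-likelihood test gave a Benjamini-Hochberg adjusted p under 0.05 over all 13469 genes tested. Replicate numbers paired the libraries across groups, so the fit with the replicate number as a block is given beside a result where it changes the call. The block ended no member's call, so each call described below as lost without a library passed with the block on all 12 libraries. The fits that left out libraries had no block. Of 10 epithelial marker genes, 10 passed the expression filter, with a summed level of 2535 to 3389 CPM in control libraries, 3276 to 5362 with TGF-β1, 3317 to 4993 with dexamethasone and 4732 to 7694 with both. These markers went opposite ways with TGF-β1: KRT17 and KRT7 rose (log2 fold change 1.68, SE 0.35, adjusted p = 0.00421 for KRT17; log2 fold change 0.76, SE 0.24, adjusted p = 0.0337 for KRT7), while KRT19, KRT18 and CDH1 fell (-1.63, -1.27 and -0.65, adjusted p = 2.2e-06, 9.61e-08 and 0.000348). Mean KRT14 went from 47.05 to 209.7 CPM with TGF-β1, and all its TGF-β1 libraries lay above all controls. Of 8 leukocyte markers, 2 passed (CD14 and CSF1R), with a summed level of 6.13 to 7.92 CPM in control, 9.90 to 12.8 with TGF-β1, 6.13 to 6.69 with dexamethasone and 7.66 to 11.99 with both. With TGF-β1, CD14 fell from 5.19 to 1.49 CPM and CSF1R rose from 1.09 to 9.9 CPM (means; adjusted p = 0.00103 and 4.38e-06). The pan-leukocyte gene PTPRC averaged 0.0827, 0, 0.0815 and 0.0783 CPM in control, TGF-β1, dexamethasone and combined libraries. Of 6 endothelial markers, 3 passed, with sums of 3.57 to 5.43, 6.03 to 8.08, 1.96 to 5.21 and 3.13 to 5.19 CPM. Of 6 fibroblast markers, 2 passed (PDGFRB and THY1). The sum over all 6 ran from 250.4 to 379.6 CPM in control, 504.4 to 724.5 with TGF-β1, 264.3 to 427.7 with dexamethasone and 634.6 to 971.3 with both. The sums of the other types also take in markers that did not pass. From control to TGF-β1, mean PDGFRB went from 37.6 to 189.4 CPM and mean THY1 from 290.6 to 414.9, where the THY1 libraries overlapped. Below the filter, mean PDGFRA went from 0.286 to 0.965 CPM and mean COL3A1 from 0.132 to 0.648. DCN and LUM stayed at or below 0.309 CPM in every library. The part of these marker levels in the results on NF-κB genes was not tested, and in bulk RNA fewer cells of a type cannot be told apart from less RNA per cell.

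Dexamethasone alone raised 6 of the 33 tested members and lowered 8, or 42.4% of them, where the same test called 10.4% of all genes (5.54% higher, 4.9% lower). The genes that rose were the IκB gene NFKBIA, the ligases BIRC3 and BIRC2, and 3 inhibitors that edit ubiquitin chains or degrade inflammatory mRNA (TNFAIP3, OTUD7B and ZC3H12A). The genes that fell were the non-canonical subunits NFKB2 and RELB, the IκB family members NFKBIE and BCL3, the kinase gene IKBKE, the adaptor genes TRAF3 and CARD10, and TNFAIP2. None of the 5 subunit genes rose (5.54% of all genes did), and none of the 6 tested ubiquitin-editing and other inhibitors fell (4.9% did). With so few genes, neither count can be told apart from the share of all genes. The inhibitor gene CYLD had all dexamethasone libraries below all controls without being called (adjusted p = 0.259). The median absolute log2 fold change was 0.31 over the members and 0.13 over all genes tested. With the replicate block CHUK and ICAM1 also fell, where 22.2% of all genes were called.

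In TGF-β1-treated cells dexamethasone raised 4 members (NFKBIA, CARD14, BIRC3, TNFAIP3) and lowered 7 (TRAF3, CYLD, CARD10, NFKBIE, IKBKE, NFKBIZ, BCL3), or 33.3%, against 8.11% of all genes (5.09% higher, 3.01% lower). With the replicate block BIRC2 also rose and RELB and TNFAIP2 also fell, where 17.5% of all genes were called. The count of 7 fell to 3 to 6 when any 1 of the 12 libraries was left out, those outside the comparison included. It was 3 without TGF-β1 replicate 1 or combined-treatment replicate 1, 4 without combined-treatment replicate 2 or 3, and 4 when only the groups compared entered the fit. It went as low as 0 when 1 replicate number was left out in all groups. The share of all genes called in these reduced fits was not counted, so the lower counts cannot be called particular to the members. NFKBIA, BIRC3 and TNFAIP3 rose, and TRAF3, CARD10, NFKBIE, IKBKE and BCL3 fell, in both settings of the dexamethasone comparison. The 2 settings share no library, but their libraries are paired by replicate number and entered 1 fit with a shared estimate of the spread. With only the groups compared in the fit, TNFAIP3, IKBKE, NFKBIE and TRAF3 were not called after TGF-β1 (adjusted p = 0.053, 0.0629, 0.0687 and 0.0809).

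**Figure D1:**
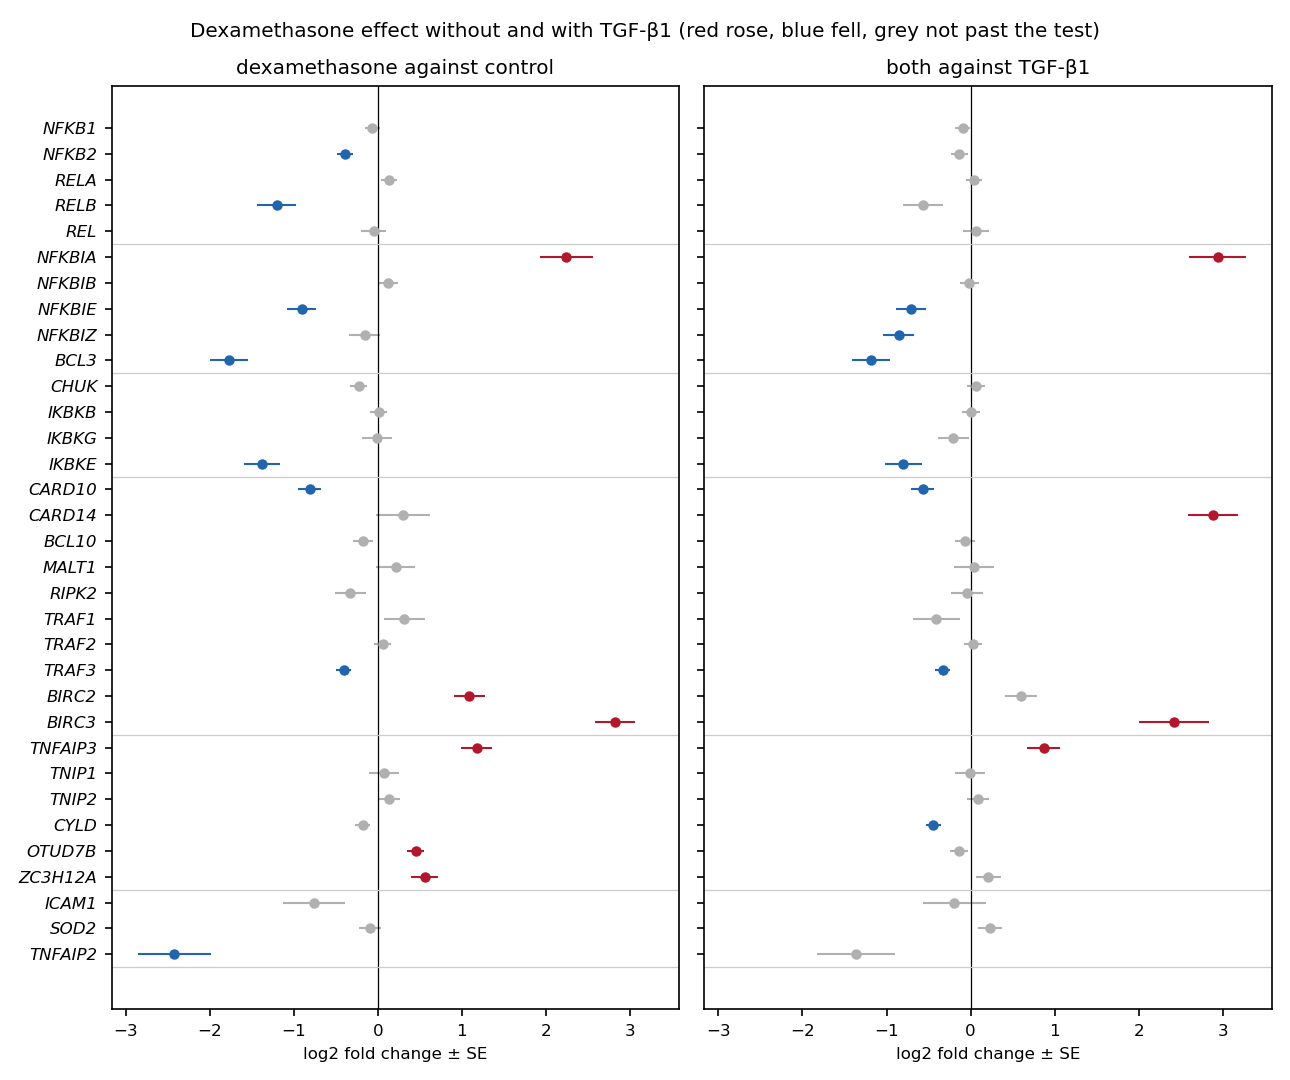
Log2 fold change with its SE for each tested member, for dexamethasone against control (left) and for both treatments against TGF-β1 (right); genes are ordered by role, red points rose, blue fell and grey did not pass the test. BIRC3 (2.82 and 2.42) and NFKBIA (2.24 and 2.94) lie far to the right in both panels, BCL3 to the left, and CARD14 lies to the right only in the panel with TGF-β1 present (2.88, against 0.30 without).

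NFKBIA encodes IκBα, the inhibitor that binds the RELA dimers (RefSeq chr14:35401513-35404749). It was at 36.8, 51.7 and 26.1 CPM in the control libraries and 19.8, 21.2 and 15.03 with TGF-β1. Dexamethasone gave 164, 234 and 135, and both gave 131, 192 and 99.8. Replicate 2 was the highest library and replicate 3 the lowest in every group, and neither dexamethasone-containing group overlapped a group without it. Dexamethasone raised NFKBIA 4.73-fold alone (log2 fold change 2.24, SE 0.32, adjusted p = 0.000787) and 7.67-fold after TGF-β1 (log2 fold change 2.94, SE 0.34, adjusted p = 0.000224). TGF-β1 alone lowered it (log2 fold change -1.03, SE 0.34, adjusted p = 0.0397, and 9.84e-09 with the replicate block), and the 3 TGF-β1 libraries lay below all 3 controls. That call did not pass when any 1 of control replicates 1 and 2, TGF-β1 replicates 1, 2 and 3, dexamethasone replicate 1 or combined-treatment replicate 1 was left out (adjusted p 0.0574 to 0.153) and not with the filter on low counts removed (adjusted p = 0.111). In dexamethasone-treated cells the groups with and without TGF-β1 overlapped (log2 fold change -0.34, SE 0.30, adjusted p = 0.43; adjusted p = 8.83e-05 with the replicate block). The difference between the 2 dexamethasone effects was 0.70 on the log2 scale (SE 0.45, adjusted p = 1; adjusted p = 0.000948 with the replicate block).

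BIRC3, which encodes cIAP2, a ubiquitin ligase that inhibits cell death and acts downstream of tumour necrosis factor receptors, had the widest ratio between group means among the tested members. It was at 4.09, 4.81 and 5.26 CPM in the control libraries and 0.3504, 0.619 and 0.617 with TGF-β1. These TGF-β1 levels rest on 2, 4 and 11 reads, so the size of ratios and fold changes against that group is uncertain. Dexamethasone gave 26.2, 38.2 and 37.5, and both gave 1.78, 5.05 and 2.74. The TGF-β1 libraries were the lowest and the dexamethasone libraries the highest, with no overlap with any other group, while control and combined treatment overlapped. TGF-β1 lowered it 8.42-fold in the absence of dexamethasone (log2 fold change -3.07, SE 0.38, adjusted p = 3.06e-05) and in its presence (log2 fold change -3.47, SE 0.25, adjusted p = 2.83e-07). Dexamethasone raised it 7.06-fold in untreated cells (log2 fold change 2.82, SE 0.23, adjusted p = 1.53e-06) and 5.36-fold after TGF-β1 (log2 fold change 2.42, SE 0.42, adjusted p = 0.00152). The combined group was not called different from control (log2 fold change -0.65, SE 0.29, adjusted p = 0.0923), but was lower with the block (adjusted p = 0.00784 with the replicate block) and without combined-treatment replicate 2 (adjusted p = 0.0103). On the log2 scale the 2 dexamethasone effects differed by -0.40 (SE 0.56, adjusted p = 1).

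BIRC2 encodes the related ligase cIAP1 and lies next to BIRC3 on chromosome 11, 7810 bases beyond its end in RefSeq (BIRC3 chr11:102317484-102339403, BIRC2 chr11:102347214-102378670). It was at 26.2, 32.4 and 35.7 CPM in the control libraries and 30.1, 30 and 34.4 with TGF-β1. Dexamethasone gave 50.4, 69.02 and 81.6, and both gave 36.3, 52.04 and 54.8. TGF-β1 alone gave no called change (SE 0.19, adjusted p = 0.997). Its dexamethasone libraries were above all control and TGF-β1 libraries and overlapped those with both. Dexamethasone raised it 2.12-fold in untreated cells (log2 fold change 1.09, SE 0.18, adjusted p = 0.00133). After TGF-β1 the change was 0.60 (SE 0.19, adjusted p = 0.0772; adjusted p = 2.75e-05 with the replicate block; adjusted p = 0.025 with DESeq2). This change was also called when any 1 of dexamethasone replicates 1 and 3 or combined-treatment replicate 1 was left out (adjusted p 0.0229 to 0.0452). With both treatments against control it was 0.60 (SE 0.19, adjusted p = 0.0238). That last call did not pass when any 1 of control replicate 1 or combined-treatment replicates 2 and 3 was left out (adjusted p 0.0668 to 0.103), nor with no filter on low counts (adjusted p = 0.0572). Both against dexamethasone gave -0.49 (adjusted p = 0.0541; adjusted p = 3e-05 with the replicate block; adjusted p = 0.0425 with DESeq2), and was also called when any 1 of dexamethasone replicate 1 or combined-treatment replicate 3 was left out (adjusted p 0.0116 to 0.0458). With the block the dexamethasone effect was smaller in TGF-β1-treated cells (difference -0.49, adjusted p = 0.859 without the block; adjusted p = 0.0191 with the replicate block).

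**Figure D2:**
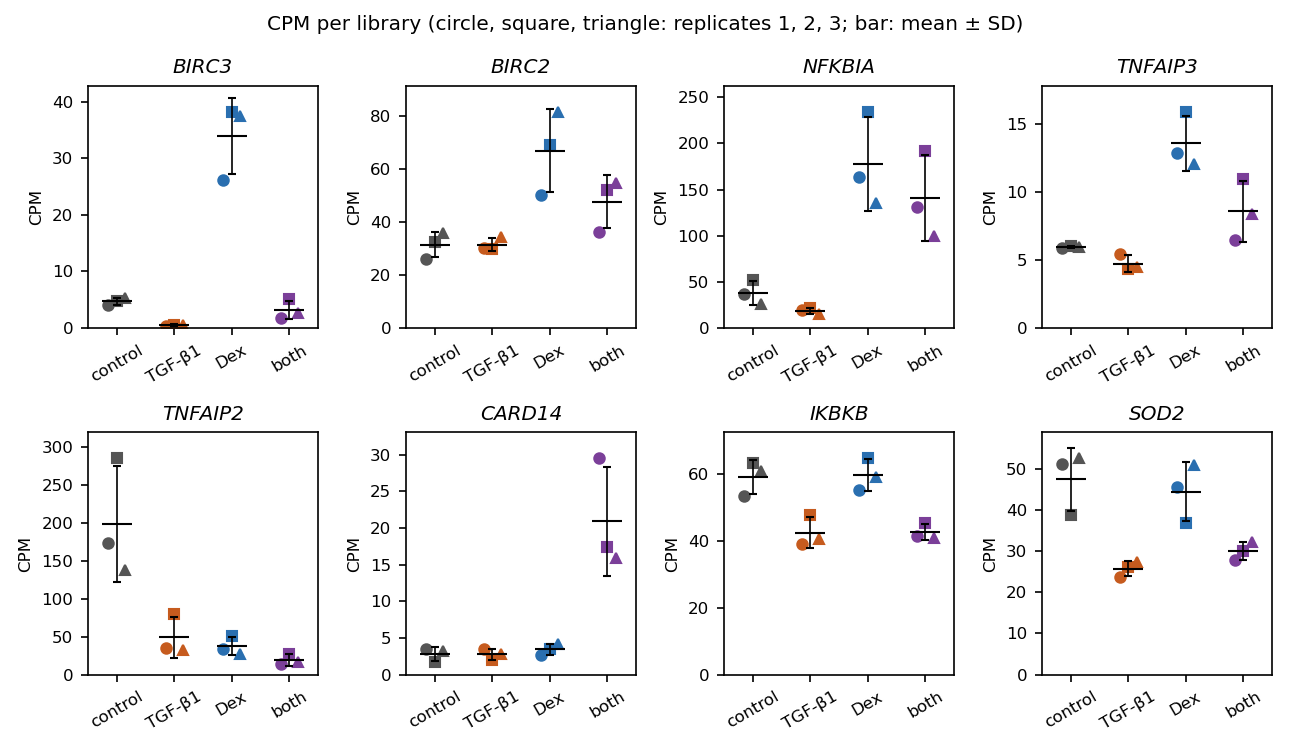
CPM in each library for 8 members, by group, with replicates 1, 2 and 3 as circle, square and triangle and the mean ± SD as bars. BIRC3 is highest with dexamethasone (26.2 to 38.2 CPM) and lowest with TGF-β1 (0.350 to 0.619 CPM), NFKBIA is high in both groups that had dexamethasone, and CARD14 is high only with both treatments (15.9 to 29.5 CPM).

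Among the inhibitors, TNFAIP3 encodes A20, which edits ubiquitin chains on pathway adaptors. It was at 5.91, 6.05 and 5.94 CPM in the control libraries and 5.43, 4.33 and 4.49 with TGF-β1. Dexamethasone gave 12.9, 15.9 and 12.1, and both gave 6.48, 10.96 and 8.39. All 3 dexamethasone libraries were above all controls. Dexamethasone raised it 2.26-fold (log2 fold change 1.18, SE 0.19, adjusted p = 0.000579), and 1.82-fold after TGF-β1 (log2 fold change 0.87, SE 0.20, adjusted p = 0.0136), a call that did not pass when any 1 of TGF-β1 replicate 3 or combined-treatment replicate 2 was left out (adjusted p 0.0528 to 0.0746). It was lower with both treatments than with dexamethasone alone (log2 fold change -0.65, SE 0.18, adjusted p = 0.0134), except when any 1 of dexamethasone replicate 2 or combined-treatment replicates 1 and 3 was left out (adjusted p 0.0502 to 0.0644). Its rise with both against control (log2 fold change 0.52, SE 0.19, adjusted p = 0.0484) was at the edge of the threshold: it did not pass when any 1 of control replicates 1, 2 and 3, TGF-β1 replicates 1, 2 and 3, dexamethasone replicates 1 and 3 or combined-treatment replicates 2 and 3 was left out (adjusted p 0.051 to 0.179). It did not pass either with DESeq2 (adjusted p = 0.0641), with only the groups compared in the fit (0.0822), with no filter on low counts (0.0732) or with library sizes left unscaled (0.284). The call after TGF-β1 was also lost with only the groups compared in the fit (adjusted p = 0.053).

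ZC3H12A encodes Regnase-1, an endonuclease that degrades inflammatory mRNAs. It was at 20.8, 18.6 and 21.4 CPM in the control libraries and 31.5, 35.2 and 28.8 with TGF-β1. Dexamethasone gave 27.9, 35.9 and 26.7, and both gave 36.8, 44.9 and 29.8. Every control library was below every treated one. It rose with TGF-β1 (log2 fold change 0.64, SE 0.16, adjusted p = 0.00636), with dexamethasone (log2 fold change 0.56, SE 0.16, adjusted p = 0.035) and with both (log2 fold change 0.85, SE 0.16, adjusted p = 0.000722), and dexamethasone added no called change after TGF-β1 (log2 fold change 0.21, SE 0.15, adjusted p = 0.594). TGF-β1 in dexamethasone-treated cells gave 0.29 (adjusted p = 0.164; adjusted p = 0.0355 with the replicate block), and was also called without combined-treatment replicate 3 (adjusted p = 0.0422). Dexamethasone's call did not pass when any 1 of control replicates 1, 2 and 3 or dexamethasone replicates 1 and 2 was left out (adjusted p 0.064 to 0.172). With library sizes left unscaled neither the TGF-β1 nor the dexamethasone change was called (adjusted p = 0.0507 and 0.0744). OTUD7B encodes Cezanne, a deubiquitinase that keeps TRAF3 from degradation. Its level was 51.01 ± 5.7 CPM in control, 57.3 ± 5.93 with TGF-β1, 69.9 ± 3.78 with dexamethasone and 52.1 ± 3.57 with both (SD, n = 3). It rose with dexamethasone alone (log2 fold change 0.45, SE 0.10, adjusted p = 0.0096), though not without control replicate 1 (adjusted p = 0.0505), and was lower with both than with dexamethasone (log2 fold change -0.42, SE 0.10, adjusted p = 0.0063). The dexamethasone effect differed by -0.59 between TGF-β1-treated and untreated cells (SE 0.15, adjusted p = 0.0968; adjusted p = 0.00068 with the replicate block; adjusted p = 0.0367 with DESeq2).

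CYLD, a deubiquitinase that restrains the pathway, fell with dexamethasone after TGF-β1 (log2 fold change -0.44, SE 0.09, adjusted p = 0.00432) and with both against control (log2 fold change -0.29, SE 0.09, adjusted p = 0.0179), the latter not when any 1 of control replicates 1 and 2 or combined-treatment replicate 1 was left out (adjusted p 0.0633 to 0.0779). TNIP1 and TNIP2, adaptors of A20, passed the test in none of the 6 comparisons and averaged between 155 and 162 CPM and between 37.1 and 41.97 CPM per group. TNIP3, their relative, was the member left out by the filter, with 7, 2, 8 and 1 reads summed over the control, TGF-β1, dexamethasone and combined groups.

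Of the 5 subunits, the 2 of the non-canonical route fell with dexamethasone and the 3 others were not called. RELB was at 14.2, 12.4 and 8.21 CPM in the control libraries and 8.23, 8.81 and 7.79 with TGF-β1. Dexamethasone gave 5.32, 4.91 and 4.64, and both gave 7.45, 5.39 and 4.38. All dexamethasone libraries were below all controls and all TGF-β1 libraries, and 0.435 of the control level was left (log2 fold change -1.20, SE 0.23, adjusted p = 0.0027). After TGF-β1 the change with dexamethasone was -0.57 (SE 0.24, adjusted p = 0.217; adjusted p = 0.0189 with the replicate block), and both against control gave -1.03 (SE 0.23, adjusted p = 0.00316). TGF-β1 alone gave -0.46 (adjusted p = 0.131; adjusted p = 0.0445 with the replicate block), and that change passed without control replicate 3 (adjusted p = 0.024).

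NFKB2, the precursor of the p52 subunit, was at 43.7, 47.5 and 40.3 CPM in the control libraries and 38.2, 32.5 and 36.8 with TGF-β1. Dexamethasone gave 32.1, 36.6 and 31.6, and both gave 33.9, 31.5 and 32.7. Every treated library was below every control, by a small margin. It fell with dexamethasone (log2 fold change -0.39, SE 0.10, adjusted p = 0.0199), with both (log2 fold change -0.42, SE 0.10, adjusted p = 0.00488) and with TGF-β1 (log2 fold change -0.28, SE 0.10, adjusted p = 0.0418). The first did not pass when any 1 of control replicates 1 and 2 or dexamethasone replicates 1 and 3 was left out (adjusted p 0.0617 to 0.102). The last did not pass when any 1 of control replicates 1 and 2, TGF-β1 replicates 1, 2 and 3, dexamethasone replicate 1 or combined-treatment replicates 1 and 3 was left out (adjusted p 0.0506 to 0.148), nor with another scaling (0.0501, edgeR's RLE), another tool (0.0713, DESeq2), only the 2 groups in the fit (0.0718) or no filter on low counts (0.107).

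RELA, the transactivating partner of the canonical dimer, was at 98.4, 91.1 and 94.5 CPM in the control libraries and 126, 106 and 107 with TGF-β1. Dexamethasone gave 115, 106 and 91.5, and both gave 119.9, 108 and 119.7. It was higher with both treatments than in control (log2 fold change 0.29, SE 0.10, adjusted p = 0.0282), but not when any 1 of control replicates 2 and 3 or combined-treatment replicates 1 and 3 was left out (adjusted p 0.0809 to 0.0847) nor with library sizes left unscaled (log2 fold change 0.03, adjusted p = 0.768). TGF-β1 gave 0.25 in untreated cells (adjusted p = 0.0589; adjusted p = 0.00354 with the replicate block) and 0.16 in dexamethasone-treated ones (adjusted p = 0.238; adjusted p = 0.0297 with the replicate block). The first was also called without dexamethasone replicate 3 (adjusted p = 0.0396). NFKB1, the precursor of p50, was at 43.5, 49.8 and 45.5 CPM in the control libraries and 41.2, 45.8 and 40.5 with TGF-β1. Dexamethasone gave 43.9, 44.8 and 43.9, and both gave 43.6, 38.1 and 37.8. Its groups overlapped, except that all libraries with both treatments were below all dexamethasone libraries. Its log2 fold changes lay between -0.22 and -0.07 in the 5 comparisons of groups, and both against control was called with the block (adjusted p = 0.0759; adjusted p = 0.0196 with the replicate block) or without combined-treatment replicate 1 (adjusted p = 0.0436). With library sizes left unscaled NFKB1 was called lower with TGF-β1 (adjusted p = 0.0126), with both against dexamethasone (0.00816) and with both against control (0.000971). REL, the c-Rel subunit, was at 18.04, 20.02 and 19.7 CPM in the control libraries and 11.6, 17.5 and 16.4 with TGF-β1. Dexamethasone gave 19.4, 18.3 and 18.4, and both gave 13.8, 14.8 and 18.7. With TMM scaling and no block it passed in none of the comparisons, the change with TGF-β1 being -0.33 (SE 0.15, adjusted p = 0.113; adjusted p = 0.0297 with the replicate block). Unscaled library sizes gave a lower call for REL with TGF-β1 (adjusted p = 0.0163), with both against dexamethasone (0.0469) and with both against control (0.0148). Of the exon bases of REL in GENCODE v29, 43.3% are shared with another gene on the same strand, AC010733.2, so its counts are uncertain.

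The IκB family divided. NFKBIE, which encodes IκBε, was at 14.6, 13.3 and 13.3 CPM in the control libraries and 15.2, 10.7 and 10.04 with TGF-β1. Dexamethasone gave 5.77, 7.88 and 7.95, and both gave 6.81, 7.48 and 7.24. Both groups with dexamethasone were below both groups without it. It fell with dexamethasone alone (log2 fold change -0.91, SE 0.17, adjusted p = 0.00288) and after TGF-β1 (log2 fold change -0.71, SE 0.18, adjusted p = 0.0246), the latter not when any 1 of TGF-β1 replicate 1 or combined-treatment replicates 1, 2 and 3 was left out (adjusted p 0.0529 to 0.104), nor with only the groups compared in the fit (adjusted p = 0.0687). BCL3, a nuclear IκB protein that works with p50 and p52 dimers, was at 31.1, 33.4 and 26.8 CPM in the control libraries and 20.1, 37.6 and 21.3 with TGF-β1. Dexamethasone gave 8.28, 9.97 and 8.43, and both gave 8.75, 13.6 and 11.98. Its dexamethasone libraries and its combined-treatment libraries were all below the other 6. Dexamethasone lowered it to 0.292 of control (log2 fold change -1.77, SE 0.23, adjusted p = 0.000109) and to 0.4403 of the TGF-β1 level (log2 fold change -1.18, SE 0.23, adjusted p = 0.00379), and with both it was lower than in control (log2 fold change -1.39, SE 0.22, adjusted p = 0.000265). TGF-β1 replicate 2 stood at 37.6 CPM, above the other TGF-β1 libraries, and TGF-β1 alone lowered BCL3 only without TGF-β1 replicate 2 (adjusted p = 0.0219).

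NFKBIZ, another nuclear IκB, was at 9.4, 11.6 and 10.1 CPM in the control libraries and 18.6, 14.5 and 13.6 with TGF-β1. Dexamethasone gave 8.57, 7.74 and 10.9, and both gave 9.88, 6.61 and 8.76. It rose with TGF-β1 (log2 fold change 0.57, SE 0.18, adjusted p = 0.0259), a call that did not pass when any 1 of control replicates 1 and 3 or TGF-β1 replicate 1 was left out (adjusted p 0.0764 to 0.113) nor with library sizes left unscaled (log2 fold change 0.36, adjusted p = 0.116). Dexamethasone lowered it in TGF-β1-treated cells (log2 fold change -0.86, SE 0.19, adjusted p = 0.00866) and gave -0.16 in untreated ones (adjusted p = 0.765), and the difference between these was not called (-0.70, adjusted p = 0.427). NFKBIB, which encodes IκBβ, passed in no comparison and averaged 36.5 to 43.6 CPM per group.

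**Figure D3:**
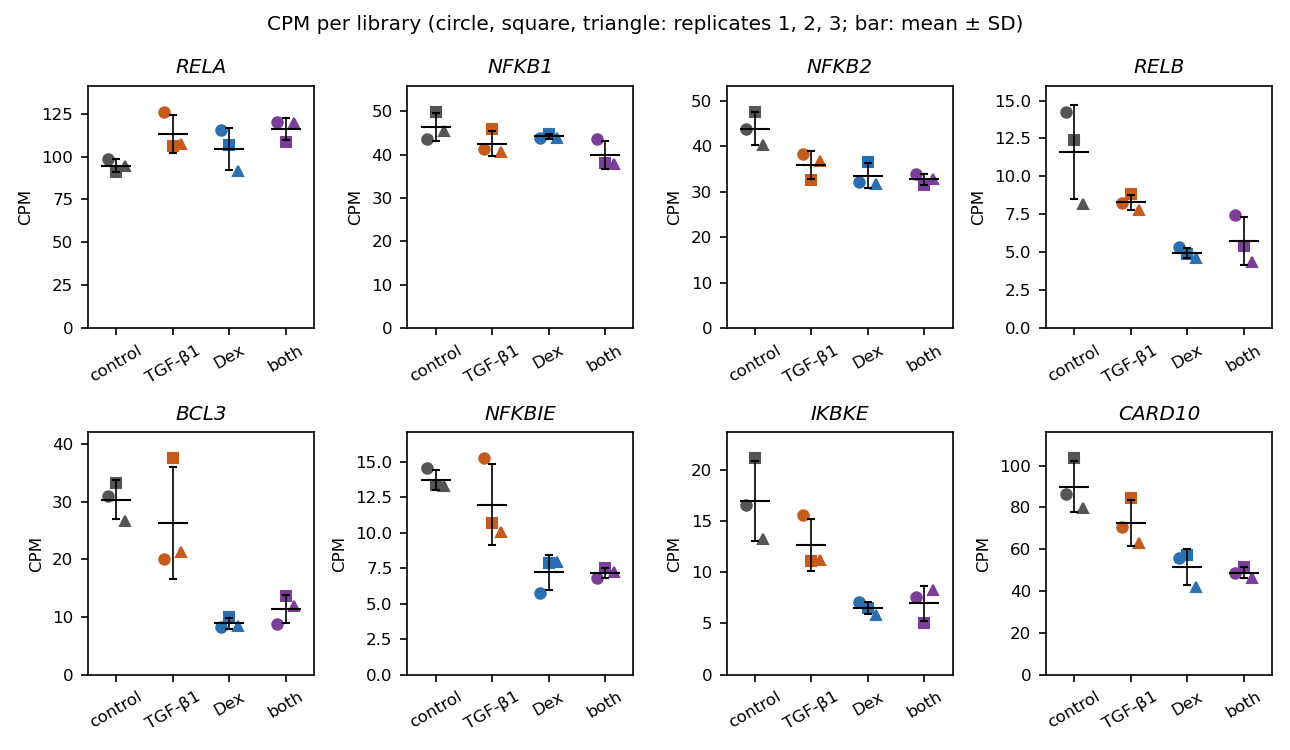
CPM in each library for 8 further members, by group, with replicates 1, 2 and 3 as circle, square and triangle and the mean ± SD as bars. RELB, BCL3, NFKBIE, IKBKE and CARD10 are lower in the 2 groups that had dexamethasone, while RELA and NFKB1 stay within a narrow range.

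Of the kinase genes, IKBKE fell with dexamethasone and IKBKB with TGF-β1. IKBKE, the IKK-related kinase of innate immune signalling, was at 16.5, 21.1 and 13.3 CPM in the control libraries and 15.6, 11.1 and 11.2 with TGF-β1. Dexamethasone gave 7.097, 6.54 and 5.84, and both gave 7.62, 5.05 and 8.21. All 6 dexamethasone-containing libraries were below the other 6. It fell with dexamethasone (log2 fold change -1.38, SE 0.22, adjusted p = 0.000522) and with both against control (log2 fold change -1.22, SE 0.22, adjusted p = 0.000507). Its fall after TGF-β1 (log2 fold change -0.80, SE 0.22, adjusted p = 0.0365) did not pass when any 1 of control replicate 1, TGF-β1 replicates 1 and 3, dexamethasone replicates 1 and 2 or combined-treatment replicates 1 and 2 was left out (adjusted p 0.0501 to 0.15), nor with only the groups compared in the fit (adjusted p = 0.0629). IKBKB, the main catalytic kinase of the canonical route, was at 53.5, 63.3 and 60.9 CPM in the control libraries and 39.1, 47.8 and 40.5 with TGF-β1. Dexamethasone gave 55.3, 64.7 and 59.2, and both gave 41.5, 45.4 and 40.9. It fell with TGF-β1 in untreated cells (log2 fold change -0.48, SE 0.10, adjusted p = 0.00217) and by a like amount with dexamethasone present (log2 fold change -0.49, SE 0.10, adjusted p = 0.00209), and no library with TGF-β1 reached one without it. The 2 dexamethasone comparisons gave 0.01 and 0.00. CHUK and IKBKG were not called with TMM scaling and no block. CHUK was called lower with dexamethasone under the block (-0.23, adjusted p = 0.23; adjusted p = 0.0443 with the replicate block). Without library scaling CHUK was called lower with TGF-β1 and with both against control (adjusted p = 0.0123 and 0.0128), and IKBKG with both against control (adjusted p = 0.037). IKBKG has a near-identical pseudogene copy, so its counts (9.83 to 11.7 CPM per group) are uncertain.

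Among the 33 tested members, the largest difference between the 2 dexamethasone effects was that of CARD14, a scaffold protein of epithelial cells that assembles with BCL10 and MALT1 to activate NF-κB. CARD14 was at 3.49, 1.71 and 3.19 CPM in the control libraries and 3.504, 2.01 and 2.86 with TGF-β1. Dexamethasone gave 2.66, 3.42 and 4.17, and both gave 29.5, 17.4 and 15.9. The 3 libraries with both treatments lay above all 9 others, and the other 3 groups overlapped. Neither TGF-β1 (log2 fold change -0.05, SE 0.34, adjusted p = 0.932) nor dexamethasone (log2 fold change 0.30, SE 0.32, adjusted p = 0.734) gave a called change alone. With both it was 7.14-fold above control (log2 fold change 2.84, SE 0.29, adjusted p = 4.21e-06), 7.38-fold above TGF-β1 (log2 fold change 2.88, SE 0.30, adjusted p = 1.5e-05) and 5.79-fold above dexamethasone (log2 fold change 2.53, SE 0.28, adjusted p = 1.17e-05). The dexamethasone effect was larger after TGF-β1 by 2.58 on the log2 scale (SE 0.44, adjusted p = 0.0128), which made CARD14 the only 1 of the 33 members called for the difference (3.03%, against 0.884% of all genes, of which 0.483% higher and 0.401% lower). At an unadjusted p under 0.05 there were 3 members, but the share of all genes at that threshold was not counted. Without control replicate 3 this difference was 2.46 (adjusted p = 0.0622). With the replicate block 3 members had a higher effect after TGF-β1 (NFKBIA, CARD14 and TNFAIP2, against 3.01% of all genes) and 2 a lower one (BIRC2 and OTUD7B, against 1.77%).

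In GENCODE v29, 14.2% of the exon bases of CARD14 lie opposite exons of SGSH or AC087741.1, and the strand setting of the counting is not given in the sources used here. SGSH, a lysosomal sulfatase gene, averaged 55.8 CPM in control, 25.7 with TGF-β1, 50.8 with dexamethasone and 33.6 with both. These are levels of the whole gene, and whether reads of the overlapping genes add to the CARD14 counts was not tested. The other CARD-family scaffold, CARD10 (CARMA3), was at 86.4, 104 and 79.7 CPM in the control libraries and 70.4, 84.6 and 63.1 with TGF-β1. Dexamethasone gave 55.6, 57.3 and 41.7, and both gave 48.6, 51.7 and 46.2. It fell with dexamethasone (log2 fold change -0.81, SE 0.14, adjusted p = 0.0012) and with both against control (log2 fold change -0.88, SE 0.14, adjusted p = 0.000228), where no libraries overlapped, while its fall after TGF-β1 (log2 fold change -0.57, SE 0.14, adjusted p = 0.0202) did not pass when any 1 of TGF-β1 replicates 1 and 2 or combined-treatment replicates 1 and 3 was left out (adjusted p 0.0507 to 0.087). TGF-β1 alone gave -0.31 for CARD10 (adjusted p = 0.106; adjusted p = 0.000673 with the replicate block), and was also called without TGF-β1 replicate 2 (adjusted p = 0.0357). BCL10 and MALT1, the partners of both scaffolds, passed in none of the comparisons, at 21.8 to 26.4 CPM and 26.99 to 31.97 CPM per group.

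TRAF3, the adaptor that restrains the non-canonical route, fell with dexamethasone from 41.4 ± 4.1 to 31.2 ± 0.959 CPM (SD, n = 3; log2 fold change -0.41, SE 0.09, adjusted p = 0.00873), though not when any 1 of control replicate 1 or dexamethasone replicate 3 was left out (adjusted p 0.055 to 0.0553). After TGF-β1 its change was -0.33 (adjusted p = 0.0385), and this call did not pass when any 1 of 11 libraries was left out, all but control replicate 1 (adjusted p 0.0502 to 0.156), nor with only the groups compared in the fit (0.0809) or no filter on low counts (0.0765). Both against control gave -0.22 for TRAF3 (adjusted p = 0.0803; adjusted p = 0.0195 with the replicate block; adjusted p = 0.00105 with library sizes left unscaled). TRAF1, an adaptor that is itself an NF-κB target, was at 1.82, 2.48 and 3.14 CPM in the control libraries and 2.45, 2.17 and 1.85 with TGF-β1. Dexamethasone gave 3.55, 2.68 and 3.399, and both gave 1.46, 1.57 and 1.64. Its low counts spread widely, and it was lower with both treatments than with dexamethasone (log2 fold change -1.04, SE 0.27, adjusted p = 0.00844), with no overlap of libraries. Both against control gave -0.72 for TRAF1 (adjusted p = 0.0513; adjusted p = 0.0309 with the replicate block), and was also called without control replicate 1 (adjusted p = 0.0291). TRAF2 and RIPK2 were not called with TMM scaling, at 44.2 to 48.5 CPM and 8.56 to 11.4 CPM per group. Without scaling of library sizes TRAF2 was called lower with both against dexamethasone and against control (adjusted p = 0.0452 and 0.0412), and RIPK2 with TGF-β1 and with both against control (adjusted p = 0.0301 and 0.0116).

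TGF-β1 alone raised 2 of the 33 members (ZC3H12A and NFKBIZ) and lowered 6 (BIRC3, TNFAIP2, NFKBIA, SOD2, IKBKB and NFKB2), or 24.2%, where 32.8% of all genes were called (16.2% higher, 16.6% lower). The members' median log2 fold change was -0.18, against -0.01 over all genes. With the replicate block RELA also rose and RELB, REL and CARD10 also fell, where 50% of all genes were called. With library sizes left unscaled by TMM the median of all genes moved to -0.22 and the member counts to 0 higher and 13 lower, against 9.29% and 32.2% of all genes, so the split of directions depends on the scaling. The count of 2 higher was 1 without control replicate 1, control replicate 3 or TGF-β1 replicate 1. With dexamethasone present, TGF-β1 raised CARD14 and lowered 6 members (BIRC3, TRAF1, TNFAIP3, SOD2, IKBKB and OTUD7B), or 21.2%, against 32.3% of all genes (15.9% higher, 16.4% lower). The count of 1 higher was 3 with the replicate block (CARD14, RELA and ZC3H12A, against 24% of all genes) and 2 without combined-treatment replicate 3 (ZC3H12A in addition), and the count of 6 lower was 11 with library sizes left unscaled, against 33.2% of all genes. With the block BIRC2, NFKBIA and TNFAIP2 also fell, where 49.9% of all genes were called in either direction. BIRC3, SOD2 and IKBKB fell with TGF-β1 both without and with dexamethasone.

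**Figure D4:**
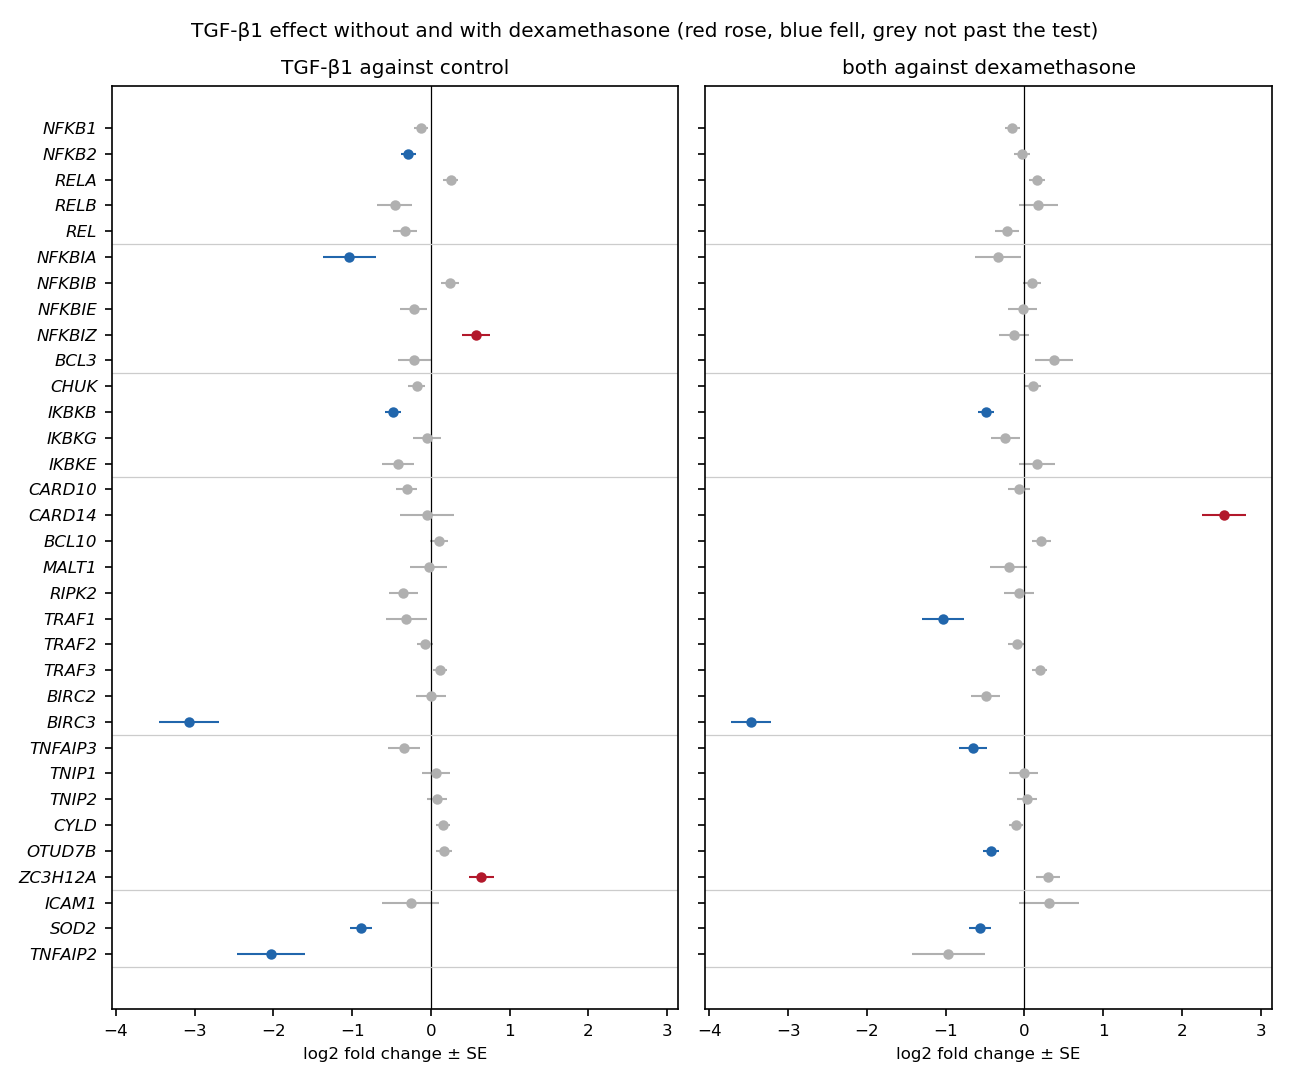
Log2 fold change with its SE for each tested member, for TGF-β1 against control (left) and for both treatments against dexamethasone (right); genes are ordered by role, red points rose, blue fell and grey did not pass the test. BIRC3 lies farthest to the left in both panels (-3.07 and -3.47), and CARD14 lies to the right in the right panel alone (2.53, against -0.05).

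TNFAIP2, a target of tumour necrosis factor and NF-κB with a role in membrane protrusions, fell with each treatment. It was at 173, 285 and 138 CPM in the control libraries and 34.7, 80.2 and 32.6 with TGF-β1. Dexamethasone gave 33.9, 51.3 and 27.4, and both gave 13.4, 27.7 and 16.6. Every control library was above every treated one, and replicate 2 was the highest in all 4 groups. TGF-β1 lowered it 4.08-fold (log2 fold change -2.03, SE 0.43, adjusted p = 0.00493), dexamethasone 5.36-fold (log2 fold change -2.42, SE 0.44, adjusted p = 0.00475) and both 10.5-fold (log2 fold change -3.39, SE 0.47, adjusted p = 0.000302). Dexamethasone after TGF-β1 gave -1.36 (SE 0.47, adjusted p = 0.133), and this was called with the block and with DESeq2 (adjusted p = 7.28e-06 with the replicate block; adjusted p = 0.0491 with DESeq2). TGF-β1 in dexamethasone-treated cells gave -0.97 (adjusted p = 0.149; adjusted p = 5.35e-05 with the replicate block). With the block the dexamethasone effect was smaller in size after TGF-β1 (difference 1.06, adjusted p = 0.956 without the block; adjusted p = 0.00101 with the replicate block).

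SOD2, the mitochondrial superoxide dismutase, was at 51.2, 38.6 and 52.5 CPM in the control libraries and 23.7, 26.1 and 27.3 with TGF-β1. Dexamethasone gave 45.5, 36.7 and 50.9, and both gave 27.9, 30.1 and 32.2. Its libraries with TGF-β1 were below those without it, with or without dexamethasone. TGF-β1 lowered it (log2 fold change -0.89, SE 0.14, adjusted p = 0.000232), also with dexamethasone present (log2 fold change -0.57, SE 0.14, adjusted p = 0.00625), and dexamethasone gave -0.09 (adjusted p = 0.824). ICAM1, the adhesion molecule that leukocytes bind, was at 51.1, 22.5 and 38.9 CPM in the control libraries and 33.99, 17.6 and 41.05 with TGF-β1. Dexamethasone gave 25.4, 17.1 and 23.6, and both gave 32.1, 16.01 and 33.03. Replicate 2 was the lowest library in all 4 groups, and the groups overlapped. Its change with dexamethasone was -0.76 (SE 0.37, adjusted p = 0.297; adjusted p = 0.000366 with the replicate block), and both against control gave -0.45 (adjusted p = 0.376; adjusted p = 0.009 with the replicate block). Of the exon bases of ICAM1, 23.6% overlap those of unnamed transcripts on the opposite strand (AC011511.2 and AC011511.5), and of those of SOD2, 9.7% overlap ACAT2, WTAP or SOD2-OT1.

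Against control, both treatments together raised 6 members (CARD14, NFKBIA, ZC3H12A, BIRC2, TNFAIP3 and RELA) and lowered 10 (TNFAIP2, BCL3, IKBKE, RELB, NFKBIE, CARD10, SOD2, IKBKB, NFKB2 and CYLD), or 48.5%, against 36.6% of all genes (18.5% higher, 18.1% lower). The share of members that rose (18.2%) was near that of all genes, and the share that fell (30.3%) was above it. With the replicate block BIRC3, TRAF3, ICAM1, NFKB1 and TRAF1 also fell, where 53.1% of all genes were called. The count of 6 was 3 without combined-treatment replicate 3 and 3 with library sizes left unscaled, against 10.5% of all genes, where RELA, BIRC2 and TNFAIP3 were not called (adjusted p = 0.768, 0.167 and 0.284). The count of 10 was then 20, against 39.7%. This comparison shares its control libraries with the 2 single-treatment comparisons.

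The same replicate number had the highest level in all 4 groups for 11 of the 33 members (33.3%, against 25.2% of all genes), 6 of them with replicate 2 highest: NFKBIA, TNFAIP2, MALT1, BCL3, CARD10 and IKBKB. The same number was lowest in all 4 groups for 6 members (18.2%, against 25.6% of all genes), among them ICAM1. With the replicate block the common biological coefficient of variation fell from 0.1217 to 0.0577.

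A second list held 30 other signalling components of the pathway, of which 29 were tested. TGF-β1 raised 3 and lowered 2 (17.2%, against 32.8% of all genes), and dexamethasone raised 0 and lowered 3 (10.3%, against 10.4%). Dexamethasone after TGF-β1 raised 3 and lowered 1 (13.8%, against 8.11%). TGF-β1 with dexamethasone present raised 6 and lowered 0 (20.7%, against 32.3%), and both against control raised 6 and lowered 1 (24.1%, against 36.6%). Pooled over directions, these shares were near or below those of all genes, apart from dexamethasone after TGF-β1. By direction, dexamethasone raised 0% of the list (5.54% of all genes) and lowered 10.3% (4.9%). TGF-β1 with dexamethasone present raised 20.7% (15.9%) and lowered 0% (16.4%). Both against control raised 20.7% (18.5%) and lowered 3.45% (18.1%). TGF-β1 alone raised 10.3% (16.2%) and lowered 6.9% (16.6%). Dexamethasone after TGF-β1 raised 10.3% (5.09%) and lowered 3.45% (3.01%). For the difference between the dexamethasone effects edgeR called 0 of them (against 0.884% of all genes). At an unadjusted p under 0.05 there were 6, and the share of all genes at that threshold was not counted. MAP3K14, the kinase of the non-canonical route, was at 65.8, 72.95 and 57.1 CPM in the control libraries and 37.9, 37.7 and 37.8 with TGF-β1. Dexamethasone gave 28.4, 23.8 and 30.9, and both gave 24.1, 21.9 and 24.6. Control, TGF-β1 and dexamethasone libraries did not overlap. It fell with dexamethasone (log2 fold change -1.22, SE 0.11, adjusted p = 4.25e-06), with TGF-β1 (log2 fold change -0.78, SE 0.11, adjusted p = 0.000102) and with dexamethasone after TGF-β1 (log2 fold change -0.67, SE 0.12, adjusted p = 0.00168), as RELB and NFKB2 did with dexamethasone alone. IRAK2, a kinase of interleukin-1 receptor signalling, fell with dexamethasone (log2 fold change -1.95, SE 0.33, adjusted p = 0.00101), as did the ligase PELI1 (log2 fold change -0.69, SE 0.18, adjusted p = 0.0198). CD40, a receptor of the non-canonical route, rose with TGF-β1 from 9.39 ± 1.31 to 23.4 ± 4.87 CPM (SD, n = 3; log2 fold change 1.32, SE 0.20, adjusted p = 0.000144), while the lymphotoxin receptor LTBR fell (log2 fold change -0.60, SE 0.15, adjusted p = 0.00678) and rose with dexamethasone after TGF-β1 (log2 fold change 0.70, SE 0.15, adjusted p = 0.0086).

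Of 24 widely used NF-κB target genes, 18 were tested. Dexamethasone lowered 11 and raised 2 (72.2%, against 10.4% of all genes), and after TGF-β1 it lowered 6 and raised 3 (50%, against 8.11%). TGF-β1 alone lowered 10 and raised 4 (77.8%, against 32.8%) and, with dexamethasone present, lowered 3 and raised 4 (38.9%, against 32.3%). Both against control lowered 11 and raised 2 (72.2%, against 36.6%). The 2 that rose with dexamethasone were CFLAR, which encodes the caspase-8 inhibitor c-FLIP, and the stress gene GADD45B (log2 fold change 1.11, SE 0.10, adjusted p = 2.9e-06). CFLAR was at 38.96, 37.1 and 40.6 CPM in the control libraries and 19.98, 20.2 and 21.3 with TGF-β1. Dexamethasone gave 100.5, 105 and 100.1, and both gave 33.2, 44.4 and 40.5. It was highest with dexamethasone and lowest with TGF-β1, with no overlap, which is the order seen for BIRC3. It rose with dexamethasone (log2 fold change 1.39, SE 0.10, adjusted p = 2.84e-07) and fell with TGF-β1 (log2 fold change -0.92, SE 0.10, adjusted p = 1.13e-05). BCL2L1, an inhibitor of mitochondrial cell death, rose with dexamethasone after TGF-β1 (log2 fold change 1.01, SE 0.13, adjusted p = 0.000175). The cytokine gene IL6 fell with dexamethasone (log2 fold change -3.63, SE 0.49, adjusted p = 0.000147), and so did IER3 (log2 fold change -3.50, SE 0.29, adjusted p = 6.41e-06) and the chemokine gene CCL2 (log2 fold change -3.06, SE 0.42, adjusted p = 0.000206). TGF-β1 raised the cytokine gene LIF (log2 fold change 1.69, SE 0.30, adjusted p = 0.00125) and the protease gene MMP9 (log2 fold change 3.92, SE 0.56, adjusted p = 0.000156), and lowered CXCL1 (log2 fold change -2.80, SE 0.39, adjusted p = 8.37e-05). CXCL1 was the 1 target of 18 called for the difference between the dexamethasone effects (5.56%, against 0.884% of all genes; log2 fold change 3.04, SE 0.62, adjusted p = 0.0348): dexamethasone lowered it in untreated cells, and after TGF-β1, where it was at 0.3504, 1.39 and 0.897 CPM, it was at 1.95, 1.04 and 0.791. These levels rest on 2, 9 and 16 reads with TGF-β1 and 12, 6 and 13 with both, so a further fall after TGF-β1 could hardly be seen.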

How the data were processed

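Raw read counts per gene from 12 RNA-seq libraries of BEAS-2B cells (poly(A) RNA, 4 groups of 3) were analysed. Counts came from featureCounts on hg38, per the submitters' processing notes, and the authors deposited them unnormalised as whole-number counts under Entrez gene identifiers. Aligner, versions and strand setting were not given in the sources at hand here. Of 18 count columns, 12 matched a sample and 6 matched none and were not used. Of 28395 identifiers, 27745 had a RefSeq symbol, and the rest held 0.0574% of the counts.

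Genes passing filterByExpr (minimum count 10; 13469 genes) were fitted in edgeR 4.0.16 (R 4.3.3) with TMM scaling, 1 mean per group over all 12 libraries, and a robust quasi-likelihood test; p-values were adjusted over all genes tested, at a threshold of 0.05, and SE is the absolute log2 fold change over the square root of F. The script was tested on simulated data. The difference between the dexamethasone effects is the effect after TGF-β1 minus that without. Same-numbered libraries of different groups deviated together (correlations 0.25 to 0.541 in 18 of 18 pairs; -0.422 to 0.042 in 36 pairs of different number), and the labels number the libraries alike in each group. Alternatives were the replicate block, RLE scaling, unscaled library sizes, no filter, DESeq2 1.42.0, only the groups compared, and leaving out libraries.

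Members and lists were chosen with earlier results of these data known. Described in full were, per comparison, the up to 6 members past the test with the largest change, members past the test of the difference, the 5 subunits and NFKBIA; of the other 2 lists, up to 3 genes per comparison and direction at a mean log2 CPM of 1 or more were eligible. Other members are given by values where a call or a library bears on them. Motifs were searched on both strands of RefSeq windows, and exon overlap was taken from GENCODE v29.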

Additional observations from a re-analysis of the deposited data

Results flagged for a closer look

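The effect of dexamethasone on CARD14 differed between TGF-β1-treated and untreated cells by 2.58 on the log2 scale (SE 0.44, edgeR's quasi-likelihood test, adjusted p = 0.0128). Its mean level was 2.79 ± 0.953 CPM in control, 2.79 ± 0.75 with TGF-β1, 3.42 ± 0.752 with dexamethasone and 20.9 ± 7.46 with both (SD, n = 3), and all 3 libraries with both treatments were above the other 9. With each of the 12 libraries left out in turn the difference was 2.27 to 2.81, with adjusted p between 0.00853 and 0.0622, and the highest p came without control replicate 3. With the replicate block the adjusted p was 0.000315.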

How the results depend on the processing

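No member's log2 fold change turned its direction where it was called. With library sizes left unscaled, TGF-β1 against control had 0 members higher and 13 lower, both against dexamethasone 11 lower, and both against control 3 higher and 20 lower; the median of all genes then lay at -0.22, -0.23 and -0.27. With the replicate block, both against dexamethasone had 3 members higher, and the difference between the dexamethasone effects 3 higher and 2 lower; the block ended no call, and the calls it added are given beside the results. DESeq2 called 1 member lower for that difference, and with only the groups compared in the fit, both against TGF-β1 had 4 lower. Over the fits without 1 library or without 1 replicate number in all groups, members higher and lower numbered 0 to 3 and 3 to 7 for TGF-β1 against control, 4 to 6 and 3 to 9 for dexamethasone against control, 2 to 5 and 0 to 6 for both against TGF-β1, 1 to 2 and 2 to 7 for both against dexamethasone, 3 to 6 and 7 to 11 for both against control, and 0 to 2 and 0 to 0 for the difference. Leaving out replicates 1 or 3 in all groups together was chosen after seeing the data. In the fits with libraries left out the share of all genes called was not counted, so these ranges have no background beside them. RLE scaling ended 1 call and added 0 of the 198 single-gene results, and no filter ended 5 and added 0. Genes at a few CPM, such as TRAF1, CARD14 outside the combined group and BIRC3 with TGF-β1, are limited by depth in replicates 1 and 2.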
